A study of Mus musculus with 24 samples.

Results

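The livers of male C57BL/6J mice fed a high-fat diet with a sugar drink (high-fat high-sugar) were compared with those of mice that had the same drink on a normal diet (high-sugar), across all genes measured. The 12 samples, 6 in each group, were chosen by their labels and make up 12 of the 24 in the series. In both groups the mice were 16 weeks old, had been fed for 10 weeks and drank a 23% (w/v) sugar solution, so the groups differ in diet. The other 12 samples, 6 on the high-fat diet and 6 on the normal diet, came from mice on plain water, and are used only to show where the effect of the diet differed between the drinks. The type of sugar and the composition of the high-fat diet are not given in the sources used here. Replicates carry the numbers 1 to 6, and nothing in the labels states that they were different animals, so p-values here rest on sample-to-sample spread, which may be partly technical.

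The liver turns surplus carbohydrate into fatty acids, packs them with dietary fat into triglyceride droplets and lipoproteins, and makes glucose and cholesterol when these run short. Insulin and sugar drive the transcription factors SREBP-1c and ChREBP, which switch on lipogenic enzymes, while sterols restrain the factor SREBP-2, which drives cholesterol synthesis. In overfed liver, macrophages that take up lipid express Trem2, Gpnmb and Cd9, and stellate cells that become activated lay down collagen. Male mouse liver also carries a programme of genes set by pulses of growth hormone through STAT5, among them the major urinary proteins, and a daily programme set by the circadian clock.

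RNA was measured with an Illumina bead array. The values are probe intensities on a linear scale, from which a background had been subtracted, so that dim probes can read below 0. A gene's level is the intensity of its brightest probe, and each difference is one of log2(intensity + 32), high-fat high-sugar minus high-sugar, with its standard error (SE). The added 32 shrinks the fold of dim probes. Probes below an intensity of about 6.5 could not be told from noise, and levels of different genes' probes are not comparable. The test was limma's moderated test over 11115 genes, with p-values adjusted by the Benjamini-Hochberg method, and a gene is said to have changed where the adjusted p was under 0.05. Samples correlated between 0.988 and 0.994 among high-fat high-sugar livers, between 0.992 and 0.996 among high-sugar livers, and between 0.98 and 0.992 across the groups (Pearson's r over genes). The tissue label was matched by its markers: the 12 measured hepatocyte genes summed to between 94292 and 99721 in high-fat high-sugar livers and between 95332 and 101565 in high-sugar livers. Alb itself, albumin, read a mean of only 119.5 in high-fat high-sugar livers and 152 in high-sugar livers on its probe. Among high-fat high-sugar samples, replicate 1 lay at the extreme of many changed genes and replicate 3 was often the nearest to the high-sugar level, as given with each group of genes below.

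Of the 11115 genes, 875 changed (7.87%), 483 upward (4.35%) and 392 downward (3.53%). A change of at least 1.5-fold was met by 136 genes that rose (1.22%) and 113 that fell (1.02%), and a change of at least 2-fold by 25 and 36. At an unadjusted p under 0.05 the count was 2372. The median difference over all genes tested was 0.01 on the log2 scale. The samples of the groups did not overlap for 434 genes (3.9% of those tested), and 344 of these were among the changed genes. High-fat high-sugar replicate 1 carried much of the count: without it 535 genes changed, 524 of them shared with the 875. For 71 of the changed genes 1 of the group means lay below the noise limit. With intensities floored at 16 in place of the added 32, 12 named genes differed by over 1.5 times more, among them Ly6d with a log2 difference of 3.58, Gpnmb with 3.13 and Pck1 with -2.08, and 23 named genes did not pass.

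**Figure D1:**
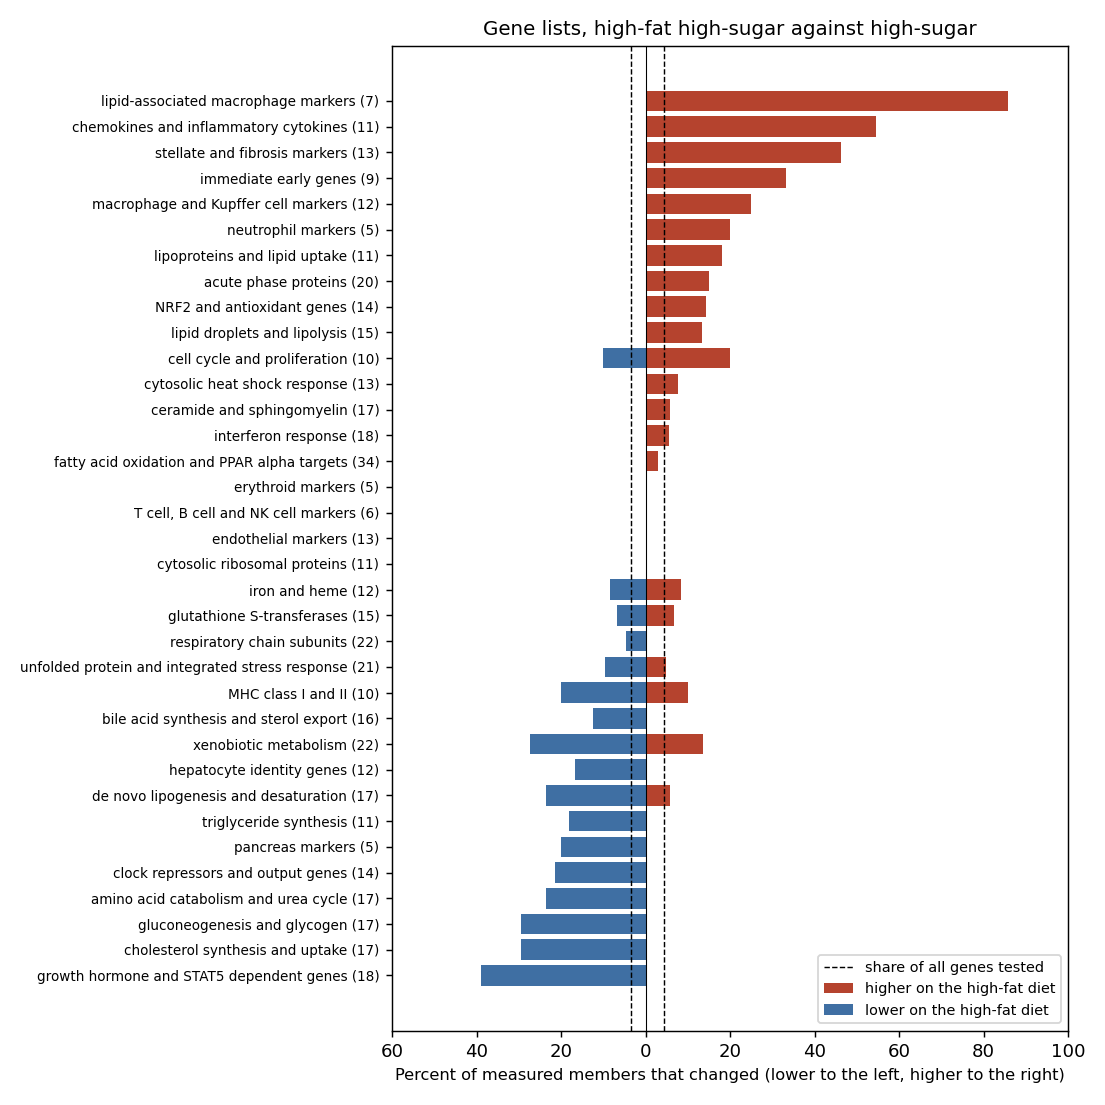
Percent of the measured members of each gene list that changed, high-fat high-sugar against high-sugar, with lower to the left and higher to the right of 0 and the number of measured members in brackets. Dashed lines mark the shares of all genes tested, 4.35% higher and 3.53% lower. Macrophage, fibrosis and chemokine lists lie to the right, and growth hormone, cholesterol and gluconeogenesis lists to the left.

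Most measured genes on a list of lipid-associated macrophage markers rose. Of 7 measured members of the lipid-associated macrophage list, 6 rose and none fell, against 4.35% of all genes, and the list's median difference was 0.97 against 0.01 over all genes. Gpnmb, a transmembrane glycoprotein of phagocytes with swollen lysosomes, had the lowest, median and highest intensities 23.9, 176 and 478 in high-fat high-sugar livers and 6.02, 11.9 and 22.8 in high-sugar livers. The groups did not overlap, although replicate 3 of the high-fat high-sugar livers lay just above the highest high-sugar sample. Its fold was 4.39 (log2 difference 2.13 ± 0.31 SE, limma adjusted p = 7.49e-05). Cd63, a tetraspanin of late endosomes and lysosomes, read 320.2, 758 and 1751 in high-fat high-sugar livers and 203, 245 and 275 in high-sugar livers, again without overlap, and rose 2.91-fold (1.54 ± 0.28, limma adjusted p = 8.55e-04). Cd9, a tetraspanin of the cell surface, read 251, 376 and 534 in high-fat high-sugar livers and 136, 176 and 229.6 in high-sugar livers, also apart, with a fold of 1.95 (limma adjusted p = 3.43e-04). Lpl, the lipase that frees fatty acids from lipoproteins, rose 2.24-fold (limma adjusted p = 3.93e-04), and only the lowest high-fat high-sugar sample, 623, fell within the high-sugar range of 458 to 781. Lgals3, galectin-3, a sugar-binding protein secreted by macrophages, rose 1.94-fold (limma adjusted p = 0.00113), with high-fat high-sugar values from 147 to 477 and high-sugar values from 125 to 253. Trem2, the lipid-sensing receptor for which these cells are often named, averaged 50.7 in high-fat high-sugar livers and 22.2 in high-sugar livers, a difference of 0.54 ± 0.16 (limma adjusted p = 0.0371). The call of Trem2 was lost when any 1 of high-fat high-sugar replicates 1 or 6 or of high-sugar replicates 2, 3, 4, 5 or 6 was left out, at limma adjusted p of at most 0.124. Trem2 did not pass with the floor of 16 or in a fit of the 12 samples alone either (limma adjusted p = 0.0564 and 0.0604). Ctsd, the lysosomal protease cathepsin D, was the measured member that did not pass, at 0.12 (limma adjusted p = 0.317). The list's other genes, Spp1, Itgax, Ccr2 and Mmp12, were not measured.

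General macrophage and Kupffer cell markers moved less. Of 12 measured, 3 rose (25%, against 4.35% of all genes) and none fell. The rises were Lyz2, lysozyme, by 0.90 ± 0.22, and C1qb and C1qa, chains of the complement protein C1q, by 0.54 ± 0.12 and 0.38 ± 0.11 (limma adjusted p = 0.00863, 0.00476 and 0.0266). The list's median was 0.13, and the summed level of its 12 genes ran from 6167 to 10220.2 in high-fat high-sugar livers and from 4152 to 7102 in high-sugar livers, so the groups overlapped. The call of C1qa was lost when any 1 of high-fat high-sugar replicates 1 or 6 or of high-sugar replicates 4, 5 or 6 was left out, at limma adjusted p of at most 0.0838. In bulk tissue, more cells of a type and more RNA per cell cannot be told apart. Which cells made the RNA of the genes on either macrophage list was not tested.

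Several chemokines and cytokines also rose. Of 11 measured members of that list, 6 rose (54.5%, against 4.35% of all genes) and none fell, with a median of 0.49. Ccl4, a chemoattractant of monocytes and lymphocytes, read 52.3, 175 and 288 in high-fat high-sugar livers and 14.3, 37.2 and 135 in high-sugar livers. High-fat high-sugar replicate 3 was the low sample and high-sugar replicate 1 the high one, and the groups overlapped through these. The fold was 2.54 (1.34 ± 0.26, limma adjusted p = 0.00175). Il1b, the inflammatory cytokine interleukin-1 beta, rose 2.20-fold (limma adjusted p = 0.00168), with 76.2, 192 and 300.4 in high-fat high-sugar livers and 31.95, 62.0 and 89.6 in high-sugar livers. Il1rn, its natural receptor antagonist, rose 1.78-fold (limma adjusted p = 4.76e-04), and its lowest high-fat high-sugar value, 42.8, lay above the highest high-sugar value, 41.6. The adhesion molecule Icam1 and the scavenger chemokine Cxcl16 rose by 0.57 ± 0.13 and 0.49 ± 0.11 (limma adjusted p = 0.00765 and 0.00527). Ccl3, a close relative of Ccl4, was near the noise limit in high-sugar livers, with 2 of 6 samples above it, against 5 of 6 in high-fat high-sugar livers (limma adjusted p = 0.00708). Ccl7, a monocyte chemoattractant outside the list and named after its values were seen, rose without overlap, with 13.9 to 76.2 in high-fat high-sugar livers and 1.24 to 13.7 in high-sugar livers (limma adjusted p = 7.14e-04). Tnf, Il6 and Ccl2 were not measured above the noise.

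Some stellate and fibrosis genes rose: 6 of 13 measured members (46.2%, against 4.35% of all genes), with none lower and a median of 0.59. Timp1, an inhibitor of matrix metalloproteinases, read 19.8, 64.4 and 215 in high-fat high-sugar livers and 2.92, 7.28 and 20.5 in high-sugar livers. High-fat high-sugar replicates 1 and 6, at 215 and 186, were far above the rest, and replicate 3 lay within the high-sugar range. The fold was 2.84 (1.504 ± 0.24, limma adjusted p = 1.97e-04). Col1a1, the main chain of fibrillar collagen, read 14.6, 36.9 and 111 in high-fat high-sugar livers and -0.319, 9.23 and 12.6 in high-sugar livers, where 4 of 6 samples exceeded the noise limit; the groups did not overlap and the fold was 1.83 (limma adjusted p = 0.00385). Mmp13, a collagenase, read 15.2, 54.0 and 109 in high-fat high-sugar livers and 3.31, 7.83 and 14.8 in high-sugar livers, also without overlap, and its fold was 2.06 (limma adjusted p = 8.78e-05); another probe for it did not pass. Col4a1, a basement membrane collagen, rose 1.66-fold (limma adjusted p = 0.00296). Vim, an intermediate filament of mesenchymal cells, and Lum, a proteoglycan of collagen fibrils, passed at limma adjusted p = 0.0342 and 0.0464. The call of Vim was lost when any 1 of high-fat high-sugar replicates 1, 4 or 6 or of high-sugar replicates 3, 4, 5 or 6 was left out, at limma adjusted p of at most 0.113. The call of Lum was lost when any 1 of high-fat high-sugar replicates 1, 4, 5 or 6 or of high-sugar replicates 1, 2, 3, 4, 5 or 6 was left out, at limma adjusted p of at most 0.152. With the floor of 16 neither Vim nor Lum passed (limma adjusted p = 0.064 and 0.0979). Without high-fat high-sugar replicate 1 the count was 4. Over all 20 measured collagen genes, 6 rose (30%, against 4.35% of all genes) and none fell. Beside Col1a1 and Col4a1 the rises were in Col4a2, Col5a1, Col15a1 and Col16a1, with differences of 0.57, 0.63, 0.59 and 0.27.

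**Figure D2:**
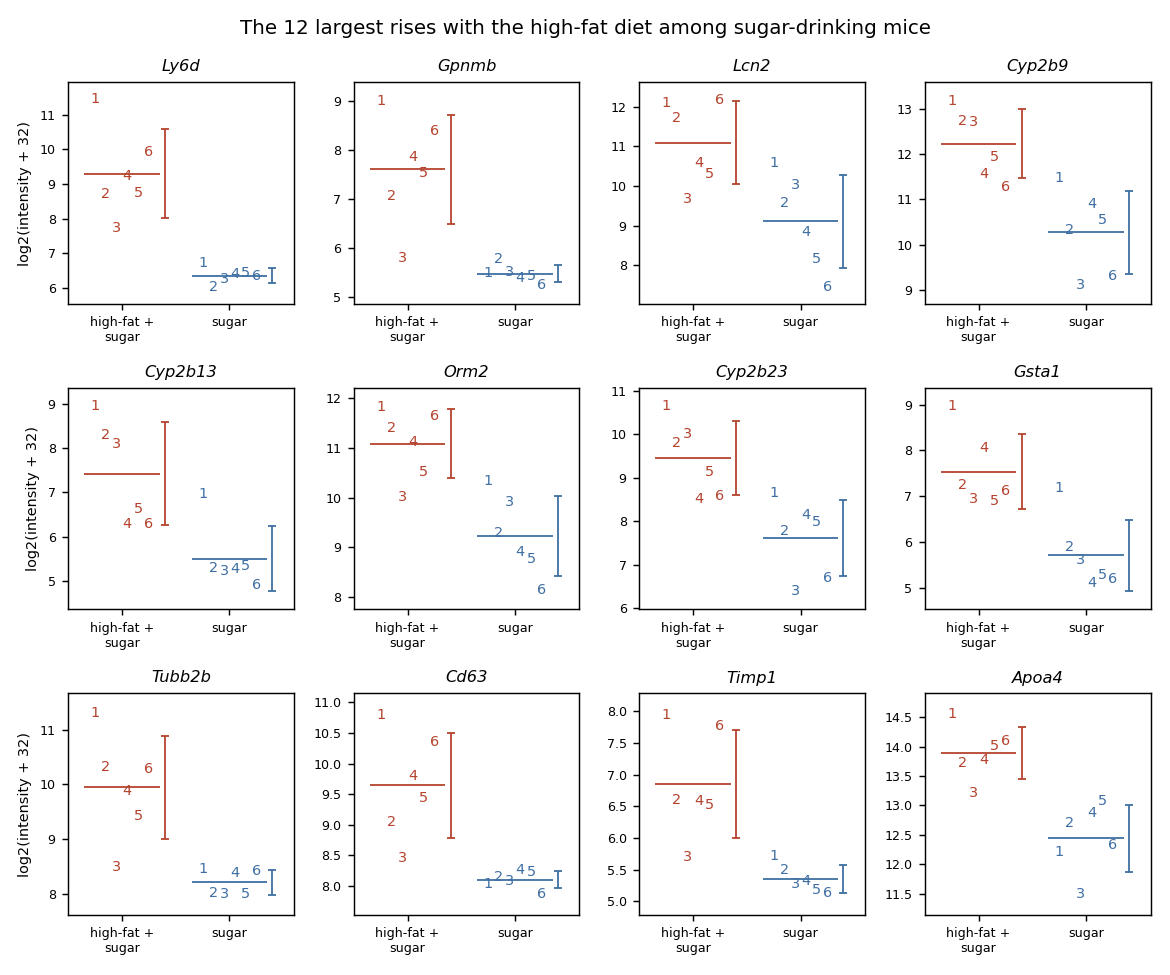
Levels of the 12 genes with the largest rises, as log2(intensity + 32), in high-fat high-sugar livers (left) and high-sugar livers (right). Each number is the replicate of 1 sample, lines are group means and bars 1 SD (n = 6). High-fat high-sugar replicate 1 is at or near the top and replicate 3 often the lowest of its group.

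Structural and membrane-binding proteins stood among the largest rises. Tubb2b, a beta tubulin, read 329, 1056 and 2483 in high-fat high-sugar livers and 223, 263 and 319.7 in high-sugar livers, and the groups did not overlap. It rose 3.33-fold (1.73 ± 0.31, limma adjusted p = 6.18e-04). With the mean of all its probes the log2 difference was 0.58, and 3 of its 4 other probes, all near the noise limit, did not pass. Tuba1b, Tubb4b and Tubb6 rose by 0.53, 0.62 and 0.47, which makes 4 of 14 tubulins measured (28.6%, against 4.35% of all genes). Among 8 annexins, which bind phospholipid membranes in the presence of calcium, 3 rose and 1 fell, against 4.35% and 3.53% of all genes. Anxa2 read 902, 1594 and 3202 in high-fat high-sugar livers and 524, 554 and 774 in high-sugar livers, without overlap, and rose 2.54-fold (limma adjusted p = 7.22e-05). Anxa5 and Anxa3 rose by 0.78 and 0.42, and Anxa7 was lower by a log2 difference of -0.38. Among 11 S100 proteins, small calcium binders, S100a11, S100a6 and S100a9 rose, S100a11 by 1.26 ± 0.23 (limma adjusted p = 8.23e-04). Lgals1, galectin-1, rose 2.52-fold (limma adjusted p = 0.00175), with a single high-sugar sample, replicate 1 at 1076, inside the high-fat high-sugar range of 779.98 to 1942. These families were picked by symbol after their values were seen.

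Ly6d, a small surface protein anchored by a lipid tail, had the largest rise of all named genes. Its 6 high-fat high-sugar values were 2786, 388, 181, 572, 391 and 931, against 32.4, 50.1 and 72.2 as the lowest, median and highest high-sugar values. Every high-fat high-sugar sample lay above every high-sugar sample, and replicate 1 was far above the others. The fold was 7.71 (2.95 ± 0.41, limma adjusted p = 4.04e-05). Of 5 Ly6 genes measured, Ly6c1 and Ly6e rose as well, by 0.69 and 0.48. Acute phase genes, which hepatocytes secrete in inflammation, mostly did not pass. Of 20 measured, Orm2, Lcn2 and Orm1 rose (15%, against 4.35% of all genes) and none fell. Orm2, an acid glycoprotein of plasma, read 1001, 2427 and 3591 in high-fat high-sugar livers and 249, 519 and 1258 in high-sugar livers, a 3.63-fold rise with overlap (limma adjusted p = 0.00969). Lcn2, a siderophore-binding protein, had a 3.96-fold difference that only just passed, at limma adjusted p = 0.0482. The call of Lcn2 was lost when any 1 of high-fat high-sugar replicates 1, 2, 4 or 6 or of high-sugar replicates 2, 4, 5 or 6 was left out, at limma adjusted p of at most 0.128. Its adjusted p was 0.11 (limma) with the floor of 16. Orm2 and its near-identical neighbours may share probe signal.

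Markers of other cells give the setting for these rises. None of 13 endothelial and none of 6 measured T, B and NK cell markers changed, and their medians were 0.01 and 0.02. Of 5 measured neutrophil markers, S100a9 alone passed. It lay below the noise limit in every high-sugar sample and above it in 5 of 6 high-fat high-sugar samples, so its intensity was at least 1.84-fold higher (limma adjusted p = 0.00302). With the floor of 16 it did not pass, at a log2 difference of 0.09 (limma adjusted p = 0.501). The summed neutrophil level ran from 76.2 to 311 in high-fat high-sugar livers and from 48.7 to 168 in high-sugar livers, while Ly6g, Ngp, Mpo and Cxcr2 were not measured above noise. Of 4 measured cholangiocyte markers Krt8, a keratin that hepatocytes also make, rose by 0.68 ± 0.12 (limma adjusted p = 6.18e-04), and Krt19 and Epcam were not measured. Of 3 measured adipocyte markers Pparg, the adipogenic nuclear receptor, had an adjusted p of 0.0278 (limma), with Adipoq, Plin1 and Fabp4 not measured. The call of Pparg was lost when any 1 of high-fat high-sugar replicates 1, 2 or 4 or of high-sugar replicates 3 or 6 was left out, at limma adjusted p of at most 0.0766. Its adjusted p was 0.0781 (limma) with the floor of 16. Among 5 pancreas markers Cela1 was lower by a log2 difference of -0.69 (limma adjusted p = 0.003), and Prss1, Prss2 and Pnlip were not measured. None of 5 erythroid markers changed. The part of these cells in the results was not tested.

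**Figure D3:**
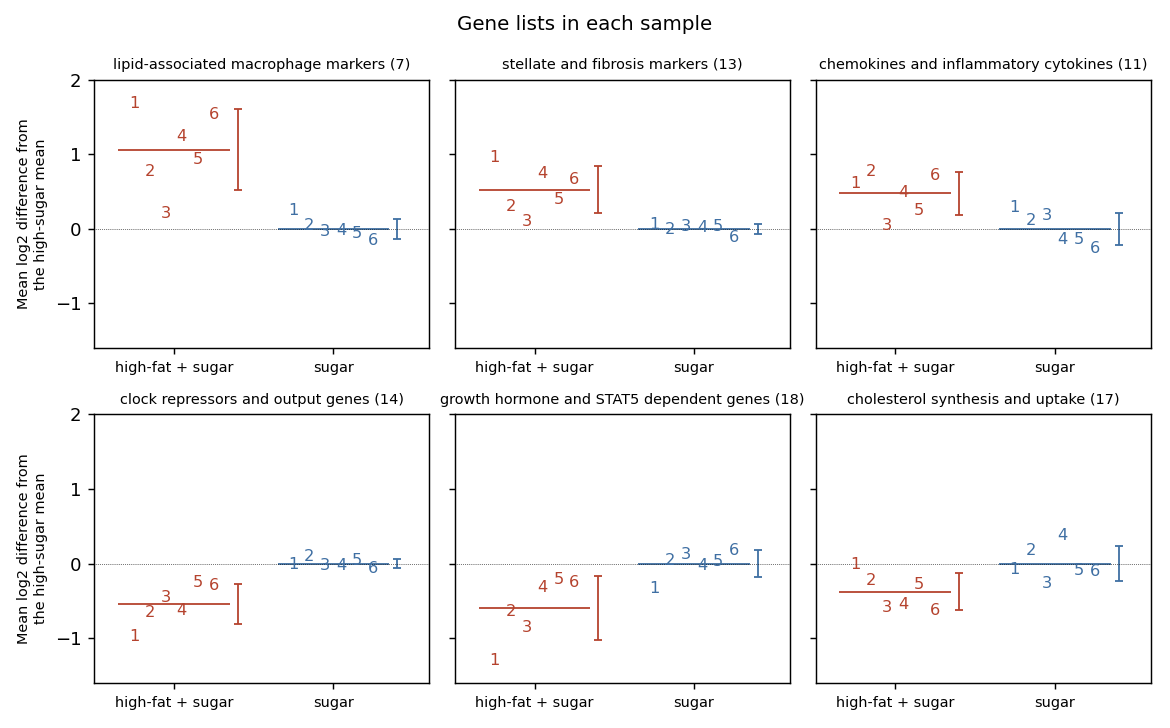
Mean log2 difference from the high-sugar mean over the measured members of 6 gene lists, in high-fat high-sugar livers (left) and high-sugar livers (right). Numbers are replicates, lines group means and bars 1 SD (n = 6). Replicate 3 of the high-fat high-sugar livers is lowest in the 3 upper panels, and replicate 1 is lowest in the clock and growth hormone panels.

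The size of the response differed between samples. The mean over the lipid-associated macrophage list, relative to the high-sugar mean, was 1.68 in high-fat high-sugar replicate 1, 1.54 in replicate 6, 1.24 in replicate 4 and 0.21 in replicate 3. High-sugar livers ran from -0.16 to 0.24, so replicate 3 alone lay within them. The same replicate had the lowest mean for the fibrosis list, 0.10, and the chemokine list, 0.04. For lists of genes that fell the order was another, and it differed between lists. Replicate 1 had the lowest mean for the growth hormone list, -1.30, and for the clock list, -0.98. For the cholesterol list replicate 6 had the lowest mean, -0.63. There replicate 1 had the highest, -0.01, within the high-sugar range of -0.27 to 0.37.

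The promoters of 2 genes that rose without overlap are shown, picked because they hold a site for AP-1, the factor built from Fos and Jun. The immediate early gene Fos was among the genes that rose, and Jun did not pass. Whether AP-1 acts on the genes that rose was not tested. The 250 bases before the annotated start were taken from RefSeq (GRCm38.p6), and capitals mark TGANTCA, which reads alike on both strands.
Mmp13, chr9:7272264-7272513, plus strand: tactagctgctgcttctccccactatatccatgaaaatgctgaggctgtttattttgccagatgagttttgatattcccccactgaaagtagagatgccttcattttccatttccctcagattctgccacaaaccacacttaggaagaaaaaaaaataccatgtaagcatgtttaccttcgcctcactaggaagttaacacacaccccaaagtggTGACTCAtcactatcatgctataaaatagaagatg
Anxa2, chr9:69453433-69453682, plus strand: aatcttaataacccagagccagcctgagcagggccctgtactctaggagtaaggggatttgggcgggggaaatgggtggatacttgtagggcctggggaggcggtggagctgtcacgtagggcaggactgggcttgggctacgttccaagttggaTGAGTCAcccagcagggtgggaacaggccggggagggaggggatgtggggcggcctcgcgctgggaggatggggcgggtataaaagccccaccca
The site begins 35 bases before the start in Mmp13 and 95 bases before it in Anxa2. It occurred in 11.5% of 131 windows of genes higher by at least 1.5-fold, 5.83% of 120 windows of genes lower by as much, 5.23% of 11463 windows of the genes tested and 6.75% of all 32851 windows, where promoters were matched by symbol for 8976 of the 11115 genes. The windows of Timp1, Gpnmb, Il1b and Lgals3 hold no such letters. Of 9 immediate early genes measured, Atf3, Fos and Ier3 rose (33.3%, against 4.35% of all genes), with limma adjusted p = 1.27e-04, 0.00601 and 0.0127. Fos read 5.38, 21.5 and 62.7 in high-fat high-sugar livers and 3.45, 5.73 and 13.5 in high-sugar livers, where 1 of 6 samples exceeded the noise limit. Atf3, a stress-induced transcription factor, was likewise above the noise in 6 of 6 high-fat high-sugar and 1 of 6 high-sugar samples. With intensities floored at 16 in place of the added 32, neither Fos nor Atf3 passed (limma adjusted p = 0.0644 and 0.058).

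**Figure D4:**
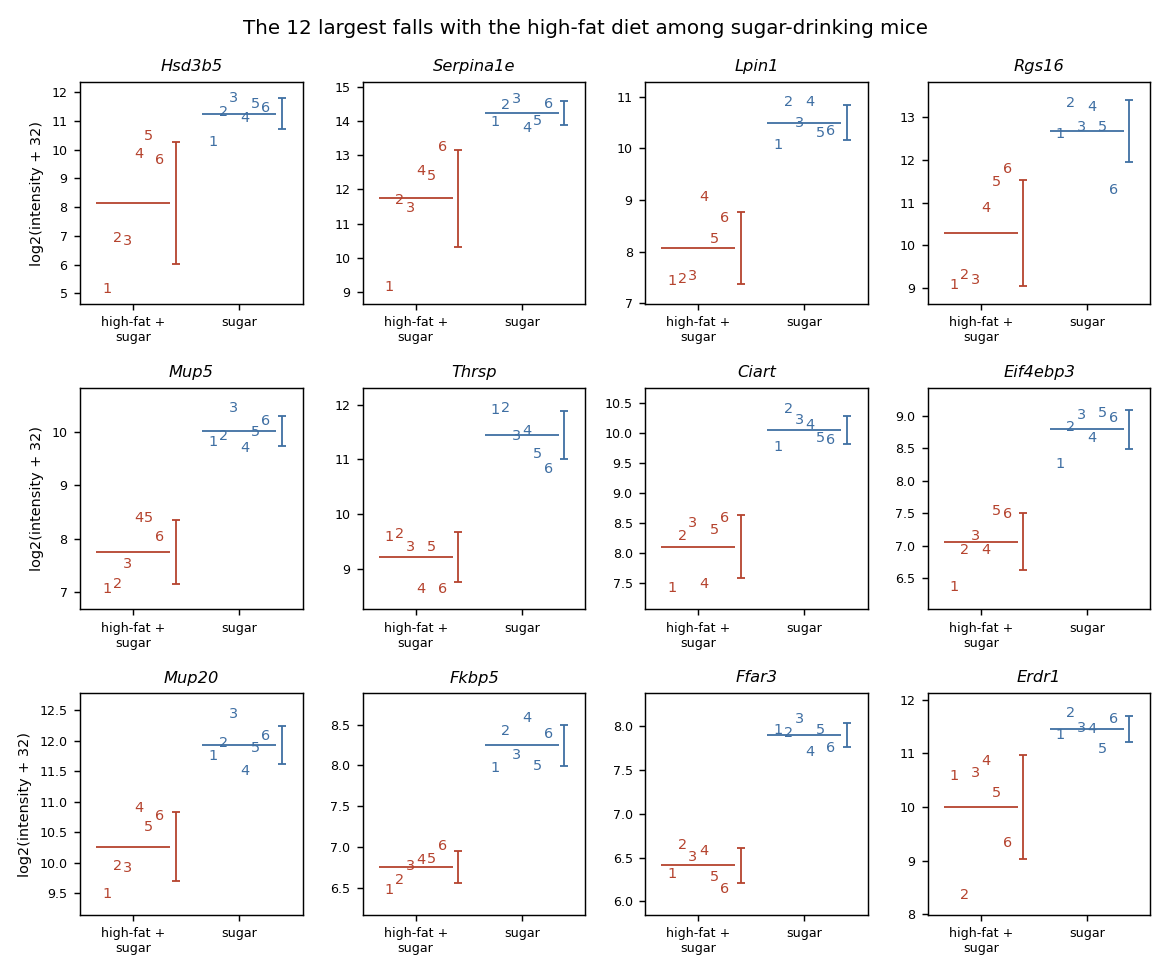
Levels of the 12 genes with the largest falls, as log2(intensity + 32), in high-fat high-sugar livers (left) and high-sugar livers (right). Each number is the replicate of 1 sample, lines are group means and bars 1 SD (n = 6). For Hsd3b5, Rgs16, Lpin1, Mup5 and Mup20 the high-fat high-sugar replicates 1, 2 and 3 lie below replicates 4, 5 and 6.

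Several male-predominant growth hormone targets fell. Of 18 measured members of the growth hormone and STAT5 list, 7 fell and none rose, against 3.53% of all genes, and the median was -0.26. Hsd3b5, a male-specific steroid-metabolising enzyme, had the largest fall of all named genes. Its high-fat high-sugar values were 3.86, 88.9, 80.6, 904, 1394 and 766, and its lowest, median and highest high-sugar values 1193, 2643 and 3582. Replicate 1 was below the noise limit, replicates 2 and 3 were low, and replicate 5 reached into the high-sugar range. The log2 difference was -3.11 ± 0.63 (limma adjusted p = 0.00258), and -2.51 without replicate 1. Serpina1e, a mouse alpha-1-antitrypsin, read 528, 4282 and 9636 in high-fat high-sugar livers and 14075, 19492 and 25682 in high-sugar livers, without overlap, a 5.61-fold fall (limma adjusted p = 7.97e-04). Its relative Serpina1a fell 2.05-fold (limma adjusted p = 5.73e-05). The other members that fell were C8b, a complement component, Cyp7b1, an oxysterol hydroxylase, the P450 enzyme Cyp2d9, and Mup20 and Mup3, with log2 differences of -0.82, -0.86, -0.42, -1.67 and -0.25. The call of Cyp7b1 was lost without high-fat high-sugar replicate 1, and that of Mup3 without high-fat high-sugar replicate 6 or high-sugar replicate 3, at limma adjusted p of 0.065 and at most 0.06. The STAT5 site TTCNNNGAA was also searched in the promoter windows. It occurred in 2.5% of 120 windows of genes lower by at least 1.5-fold. The share was 5.34% of 131 windows of genes higher by as much and 6.05% of the windows of genes tested. The windows of Hsd3b5 and Serpina1e hold no such letters. The part of STAT5 in these falls was not tested.

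The major urinary proteins, pheromone carriers that male liver secretes for the urine, fell as a family: 5 of 6 measured genes, against 3.53% of all genes. Mup5 read 101, 192 and 303 in high-fat high-sugar livers and 796, 962 and 1362 in high-sugar livers. No sample overlapped, and within the high-fat high-sugar group replicates 1, 2 and 3, at 101, 111 and 154, were below replicates 4, 5 and 6, at 303, 301 and 231. It fell 4.76-fold (-2.25 ± 0.21, limma adjusted p = 4.33e-08). Mup20, darcin, the male sex pheromone, read 687, 1222 and 1877 in high-fat high-sugar livers and 2880.2, 3832 and 5492 in high-sugar livers and fell 3.19-fold (limma adjusted p = 9.84e-06). Mup6 and Mup21 had log2 differences of -0.95 and -0.59 (limma adjusted p = 0.00478 and 0.0472). Probes of this family, of the Serpina1 genes and of the Cyp2b genes can bind transcripts of near-identical relatives, so single members are uncertain.

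The female-predominant Cyp2b enzymes went the other way. Cyp2b13 read 461, 281, 239, 46.1, 66.6 and 45.6 in high-fat high-sugar replicates 1 to 6, against -1.79, 7.10 and 92.5 as the lowest, median and highest in high-sugar livers. Here replicates 1, 2 and 3 were the high ones, and high-sugar replicate 1 was the only high-sugar sample well above the noise. The fold was 3.77 (1.91 ± 0.35, limma adjusted p = 8.40e-04). Cyp2b23 rose 3.56-fold (limma adjusted p = 0.0111). Cyp2b9 read 2423, 5269 and 9227 in high-fat high-sugar livers and 515, 1352 and 2813 in high-sugar livers, with a fold of 3.88 (limma adjusted p = 0.0411). The call of Cyp2b9 was lost when any 1 of high-fat high-sugar replicates 1, 2 or 3 or of high-sugar replicates 2, 3, 5 or 6 was left out, at limma adjusted p of at most 0.108. Its adjusted p was 0.181 (limma) with the floor of 16. Cyp2b10, the member that the receptor CAR induces, had a log2 difference of -1.13 (limma adjusted p = 0.00398). Its other kept probe did not pass, but averaged near the noise limit, 7.39 in high-fat high-sugar livers and 7.45 in high-sugar livers. The receptor genes themselves fell, Nr1i3 (CAR) by 1.53-fold and Nr1i2 (PXR) by 1.46-fold (limma adjusted p = 0.00309 and 0.00246). Among the other P450 enzymes Cyp3a11 rose 1.86-fold, and its lowest high-fat high-sugar value of 5372 was above the highest high-sugar value of 5174 (limma adjusted p = 0.00951). Cyp2c54 fell 2.01-fold, also without overlap (limma adjusted p = 0.00175). In all, 3 of 22 measured xenobiotic genes rose and 6 fell, against 4.35% and 3.53% of all genes. The 6 that fell include Cyp2c29 and Cyp2e1. The call of Cyp2e1 was lost when any 1 of high-fat high-sugar replicates 1, 4 or 6 or of high-sugar replicates 3, 4 or 5 was left out, at limma adjusted p of at most 0.0877. Gsta1, which conjugates glutathione to electrophiles, read 86.6, 113 and 467 in high-fat high-sugar livers and 2.16, 11.6 and 112 in high-sugar livers, and rose 3.55-fold (limma adjusted p = 2.34e-04), with a log2 difference of 1.83 and of 1.11 with the mean of its probes. Of 15 glutathione S-transferases measured, Gstt2 was lower at limma adjusted p = 0.0334 and the other 13 did not pass. The call of Gstt2 was lost when any 1 of high-fat high-sugar replicates 1, 2, 4 or 6 or of high-sugar replicates 3, 4, 5 or 6 was left out, at limma adjusted p of at most 0.091. Gstt2 did not pass with the floor of 16 either (limma adjusted p = 0.0561).

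Few clock genes passed, and those that did fell far. Of 14 measured repressors and output genes, Rgs16, Ciart and Usp2 fell (21.4%, against 3.53% of all genes) and none rose, and the list's median was -0.29. Ciart, a repressor within the clock, read 137, 288 and 352 in high-fat high-sugar livers and 837, 1007 and 1322 in high-sugar livers, without overlap. It fell 3.86-fold (-1.95 ± 0.32, limma adjusted p = 2.72e-04). Usp2, a deubiquitinase under clock control, read 366, 710.4 and 852 in high-fat high-sugar livers and 1442, 1557 and 1809.8 in high-sugar livers and fell 2.38-fold (limma adjusted p = 8.84e-05). Rgs16, which damps G-protein signalling, fell 5.22-fold (limma adjusted p = 0.0025). Its high-fat high-sugar replicates 1, 2 and 3, at 508, 603 and 548, were below replicates 4, 5 and 6, at 1842, 2819 and 3508, and high-sugar replicate 6, at 2489, lay inside the range of replicates 4, 5 and 6. The hour at which tissue was taken is not given in the sources used here.

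The promoter of Ciart is shown because it carries 3 copies of the E-box CACGTG, the site bound by the clock activators CLOCK and BMAL1. The window is the 250 bases before the RefSeq start (GRCm38.p6), with E-boxes in capitals, and the motif reads alike on both strands.
Ciart, chr3:95882229-95882478, minus strand: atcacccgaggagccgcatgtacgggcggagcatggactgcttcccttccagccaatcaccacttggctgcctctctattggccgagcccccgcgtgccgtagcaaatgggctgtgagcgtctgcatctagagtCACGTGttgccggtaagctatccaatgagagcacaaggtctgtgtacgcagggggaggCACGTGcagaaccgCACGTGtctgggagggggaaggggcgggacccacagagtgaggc
They begin 116, 58 and 44 bases before the start. An E-box occurred in 28.6% of 14 windows of the clock list, 10.8% of 120 windows of genes lower by at least 1.5-fold, 8.4% of 131 windows of genes higher by as much and 8.06% of the windows of genes tested. The windows of Usp2, Rgs16, Lpin1 and Thrsp hold no such letters. Whether CLOCK and BMAL1 had a part in these falls was not tested.

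Lipogenic genes fell in part. Of 17 measured members of that list, 4 fell and 1 rose, against 3.53% and 4.35% of all genes, with a median of -0.19. Thrsp, a nuclear protein that promotes lipogenesis, read 363, 643 and 761 in high-fat high-sugar livers and 1785, 2815 and 3910.2 in high-sugar livers. The groups stood well apart, and the fall was 4.73-fold (-2.24 ± 0.27, limma adjusted p = 3.40e-06). Tkfc, which phosphorylates the glyceraldehyde made from fructose, Pklr, liver pyruvate kinase, and Srebf1, the gene of SREBP-1, fell 1.77-fold, 1.46-fold and 1.40-fold, all without overlap (limma adjusted p = 9.09e-04, 0.00332 and 0.0194). The call of Srebf1 was lost without high-fat high-sugar replicate 1, at limma adjusted p = 0.0705, and with the floor of 16, at 0.0774. Elovl5, an elongase of polyunsaturated fatty acids, rose 1.32-fold (limma adjusted p = 0.00959). Lpin1, a phosphatidate phosphatase of triglyceride synthesis, read 140.2, 212 and 499 in high-fat high-sugar livers and 1035, 1327 and 1877 in high-sugar livers. It fell 5.40-fold without overlap (-2.43 ± 0.35, limma adjusted p = 4.70e-05), and its relative Lpin2 fell 1.59-fold (limma adjusted p = 0.0183), a call lost without high-fat high-sugar replicate 1 at 0.0607. With the mean of its probes Lpin2 had a log2 difference of -0.21 (limma adjusted p = 0.202), and 3 other probes of the gene did not pass. The other 9 of 11 measured triglyceride synthesis genes did not pass.

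A few genes of lipid storage and transport rose, while genes of oxidation mostly did not pass. Of the droplet list 13.3% rose, of the lipoprotein and uptake list 18.2%, and of all genes 4.35%. Of 15 lipid droplet genes Plin2, the coat protein of hepatocyte droplets, and Cidec, which enlarges droplets, rose 1.45-fold and 1.77-fold (limma adjusted p = 0.00603 and 0.0232). The call of Cidec was lost when any 1 of high-fat high-sugar replicates 1 or 6 or of high-sugar replicate 3 was left out, at limma adjusted p of at most 0.0778. Of 11 lipoprotein and uptake genes, Apoa4 and Lpl rose. Apoa4, an apolipoprotein of triglyceride-rich particles, read 9484, 15182 and 23983 in high-fat high-sugar livers and 2853, 5859 and 8607 in high-sugar livers, without overlap, and rose 2.73-fold (limma adjusted p = 4.15e-05). Among 34 genes of fatty acid oxidation and PPAR alpha targets, 2.94% rose, below the 4.35% of all genes, and the list's median was 0.06. The single one to pass was Pdk4, which shuts pyruvate out of oxidation. Its 2.07-fold rise (limma adjusted p = 0.0255) had its highest value in high-fat high-sugar replicate 4, at 373 against a group median of 94.2 and a high-sugar median of 40.1, and the log2 difference was 1.05 with that replicate and 0.76 without it. The call of Pdk4 was lost when any 1 of high-fat high-sugar replicates 1 or 4 or of high-sugar replicates 3 or 6 was left out, at limma adjusted p of at most 0.0708.

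Some cholesterol synthesis genes were lower. Of 17 measured, 5 fell (29.4%, against 3.53% of all genes) and none rose, and the median was -0.40. The list's mean relative to the high-sugar mean was -0.01 in high-fat high-sugar replicate 1 and -0.22 in replicate 2. Both lay within the high-sugar range of -0.27 to 0.37. It was lowest in replicate 6, at -0.63. Msmo1, a demethylase of sterol synthesis, read 235, 359 and 566 in high-fat high-sugar livers and 569.6, 647 and 1178 in high-sugar livers, a 2.04-fold fall in which the groups just failed to overlap (limma adjusted p = 0.0179). The call of Msmo1 was lost when any 1 of high-fat high-sugar replicate 6 or of high-sugar replicates 2 or 4 was left out, at limma adjusted p of at most 0.052. Insig1, the sterol-responsive brake on SREBP processing, fell 1.75-fold without overlap, with 115 to 230.4 in high-fat high-sugar livers and 260.1 to 404 in high-sugar livers (limma adjusted p = 0.00136). Mvd and Lss, enzymes of the pathway, and Stard4, a sterol carrier, had adjusted p = 0.0342, 0.007 and 0.0271 (limma). The call of Mvd was lost when any 1 of high-fat high-sugar replicates 3, 4 or 6 or of high-sugar replicates 2, 3 or 4 was left out, at limma adjusted p of at most 0.0956. The call of Stard4 was lost when any 1 of high-fat high-sugar replicates 1, 4 or 6 or of high-sugar replicates 4 or 5 was left out, at limma adjusted p of at most 0.0771. With the floor of 16, Msmo1, Mvd and Stard4 did not pass (limma adjusted p = 0.0568, 0.076 and 0.0704), and with the mean of its probes Lss did not (limma adjusted p = 0.0617). The count was 2 without high-fat high-sugar replicate 6, and as low with intensities floored at 16. Of 16 bile acid genes Cyp27a1 and Cyp7b1, both hydroxylases of the acidic pathway, fell, Cyp27a1 by 1.43-fold without overlap (limma adjusted p = 0.00348).

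Some genes of glucose output and glycogen fell. Of 17 measured, 5 fell (29.4%, against 3.53% of all genes) and none rose, and the median was -0.23. Pck1, the enzyme that commits oxaloacetate to gluconeogenesis, read 20.5, 37.4 and 53.04 in high-fat high-sugar livers and 117, 157 and 168 in high-sugar livers. Every high-fat high-sugar sample lay below every high-sugar sample, and the fall was 2.67-fold (-1.42 ± 0.10, limma adjusted p = 5.17e-10). Ppp1r3b, which targets a phosphatase to glycogen, read 287, 478 and 784 in high-fat high-sugar livers and 851, 1055 and 1129.5 in high-sugar livers, also apart (limma adjusted p = 0.00621). Pygl, liver glycogen phosphorylase, fell 1.43-fold without overlap (limma adjusted p = 0.00668). Another Pygl probe, averaging 577 in high-fat high-sugar livers and 720 in high-sugar livers, did not pass (log2 -0.30, limma adjusted p = 0.185). Slc37a4, the glucose 6-phosphate transporter, and Foxo1, a transcription factor that insulin restrains, had adjusted p = 0.0058 and 0.0306 (limma). The call of Foxo1 was lost when any 1 of high-fat high-sugar replicates 1, 2 or 4 or of high-sugar replicates 2, 3, 4 or 5 was left out, at limma adjusted p of at most 0.103. With the floor of 16 neither Slc37a4 nor Foxo1 passed (limma adjusted p = 0.0647 and 0.0605).

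Of 17 amino acid and urea cycle genes, 4 fell (23.5%, against 3.53% of all genes) and none rose. They were Bhmt, which remethylates homocysteine, Tdo2, which opens the tryptophan ring, Fah, the last step of tyrosine breakdown, and Gpt, alanine aminotransferase. Bhmt fell 2.15-fold and Tdo2 1.56-fold (limma adjusted p = 0.00369 and 3.85e-07), each without overlap. Without high-fat high-sugar replicate 1 the count was 2, as Fah and Gpt did not pass (limma adjusted p = 0.0591 and 0.0691). The call of Gpt was lost when any 1 of high-fat high-sugar replicates 1, 4 or 6 or of high-sugar replicates 1, 2, 3, 5 or 6 was left out, at limma adjusted p of at most 0.11. It was lost as well with the floor of 16 and with no filter on dim probes (limma adjusted p = 0.064 and 0.0513). Several of the smallest adjusted p-values belonged to genes that fell on dim probes. Cyp2c29, a P450 enzyme, averaged 10.5 in high-fat high-sugar livers and 50.2 in high-sugar livers (limma adjusted p = 5.17e-10), and Tdo2 averaged 12.6 in high-fat high-sugar livers and 37.6 in high-sugar livers. The hepatocyte genes Rbp4, the retinol carrier, and Apoh, a plasma glycoprotein, averaged 92.7 and 291 in high-fat high-sugar livers and 217 and 454 in high-sugar livers, and fell 2.02-fold and 1.55-fold (limma adjusted p = 4.19e-07 and 6.18e-04). They were the 2 of 12 hepatocyte identity genes to pass. Whether these dim probes follow their transcripts was not tested.

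Transcripts of the mitochondrial genome were lower. Of 7 measured, ATP6, COX2, CYTB, ND4 and ND4L fell (71.4%, against 3.53% of all genes) and none rose. ATP6, a subunit of ATP synthase, read 223, 287 and 475 in high-fat high-sugar livers and 657, 784 and 928 in high-sugar livers, and fell 2.46-fold (limma adjusted p = 6.41e-08). The bright probes of CYTB and ND4, subunits of complexes III and I, differed less, by log2 -0.34 and -0.24 (limma adjusted p = 4.60e-04 and 0.0105). By the brightest probes, of 22 nuclear-encoded respiratory subunits Ndufb5 alone passed, at limma adjusted p = 0.0416 and kept under 4 of 12 sample omissions and 7 of 11 other settings. None of 11 cytosolic ribosomal proteins passed by that measure. A dimmer probe of Atp5a1 was lower by log2 -0.71, averaging 21.0 in high-fat high-sugar livers and 54.4 in high-sugar livers (limma adjusted p = 2.53e-07). A second probe of Rps2 was higher by 0.26 (limma adjusted p = 0.0115). The brightest probes of these genes did not pass (limma adjusted p = 0.179 and 0.578).

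Further large falls belonged to no list. Eif4ebp3, a repressor of translation initiation, read 50.1, 100.3 and 153 in high-fat high-sugar livers and 272, 444 and 495 in high-sugar livers, a 3.31-fold fall without overlap (limma adjusted p = 0.00438). Fkbp5, a co-chaperone that glucocorticoids induce, read 56.7, 79.5 and 96.7 in high-fat high-sugar livers and 219.5, 275 and 351 in high-sugar livers and fell 2.82-fold (limma adjusted p = 6.18e-04). Both genes separated the groups in every sample. Ffar3, a receptor for short-chain fatty acids, read 38.7, 53.2 and 68.1 in high-fat high-sugar livers and 177, 213 and 238 in high-sugar livers (limma adjusted p = 1.14e-09), while its other probe did not pass. Erdr1, named for erythroid differentiation, fell 2.74-fold (limma adjusted p = 0.00704), with high-fat high-sugar replicates 2 and 6, at 297 and 609, the lowest. Among cell cycle genes Ccnd1, cyclin D1, and Mcm2, a replication helicase subunit, rose 1.79-fold and 1.44-fold, while Tk1, thymidine kinase, fell 1.72-fold (limma adjusted p = 6.79e-04, 5.50e-04 and 4.58e-04). Of 21 stress response genes Herpud1, an endoplasmic reticulum protein, fell 1.495-fold without overlap (limma adjusted p = 0.00776), Chac1 passed at 0.0424 and Atf3 rose. The call of Chac1 was lost when any 1 of high-fat high-sugar replicates 1, 2, 3 or 6 or of high-sugar replicates 1, 2, 3, 4, 5 or 6 was left out, at limma adjusted p of at most 0.0959. Chac1 did not pass with the floor of 16 either (limma adjusted p = 0.124). Of 14 antioxidant genes Srxn1 and Gpx4 rose, and of 18 interferon genes Cxcl10 alone passed, at limma adjusted p = 0.0205. The call of Cxcl10 was lost when any 1 of high-fat high-sugar replicates 1 or 2 or of high-sugar replicates 5 or 6 was left out, at limma adjusted p of at most 0.0726. Cxcl10 did not pass with the floor of 16 either (limma adjusted p = 0.058). Of 10 MHC genes H2-D1 rose and H2-K1 and H2-Q10 fell, on probes that may bind several class I genes, and with the mean of its probes H2-D1 did not pass (limma adjusted p = 0.394). Another H2-K1 probe also fell, and a further one did not pass (limma adjusted p = 3.38e-07 and 0.84).

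The high-fat diet with plain water, against the normal diet with plain water, changed 1987 genes (17.9%), 1008 upward (9.07%) and 979 downward (8.81%). That comparison shares no sample with the one above. Of the 483 genes that rose with the sugar drink, 179 (37.1%) also rose with water, which is 17.8% of the water rises, and 1 fell. Of the 392 that fell, 171 (43.6%) also fell with water, which is 17.5% of the water falls, and 7 rose. The difference between the diet effects, sugar drink minus water, was tested directly and passed for 275 genes (2.47%), for 129 toward higher values with the drink (1.16%) and for 146 toward lower ones (1.31%). That count rests on single samples: it was 161 without high-fat high-sugar replicate 4, 177 without high-sugar replicate 2, 170 and 175 without control replicates 1 and 3, and 449 without control replicate 4. It passed for 28 of the genes that rose, of which 26 had the larger rise with the sugar drink, and for 57 of those that fell, all with the larger fall. These genes were selected by their change with the sugar drink, so a larger effect with the drink is in part set by that choice.

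**Figure D5:**
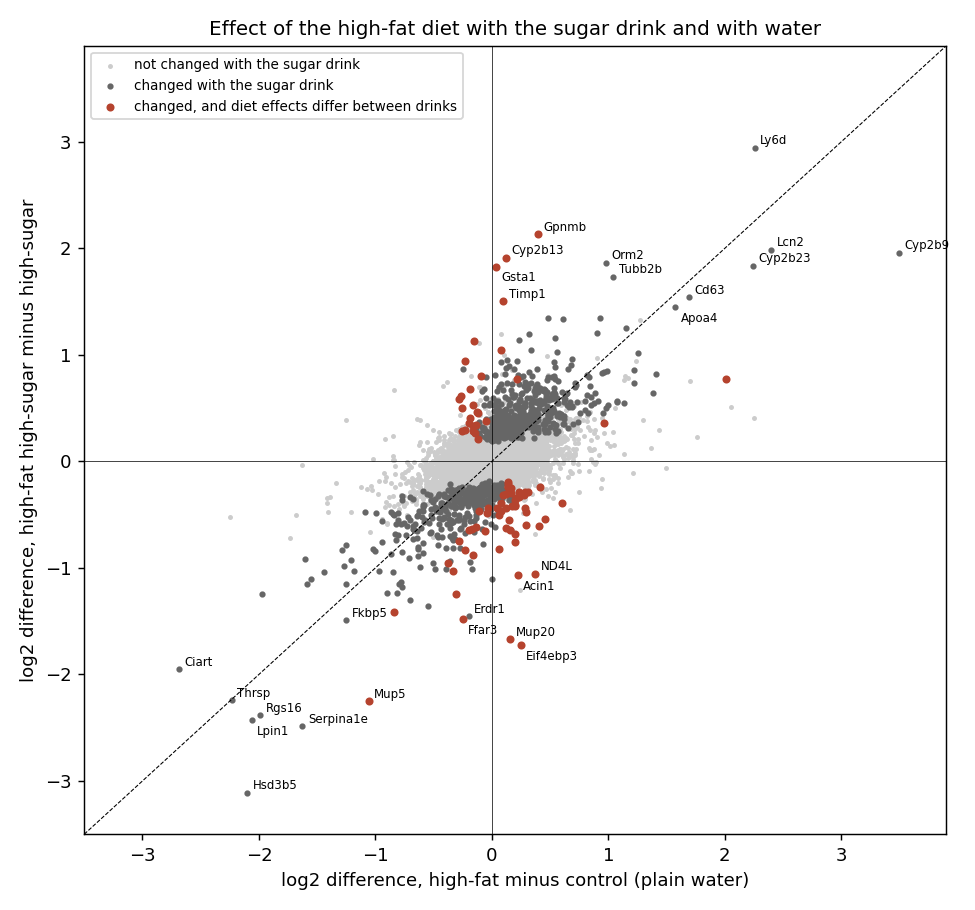
Log2 difference by the high-fat diet with the sugar drink (high-fat high-sugar minus high-sugar, vertical) against that with plain water (high-fat minus control, horizontal), 1 point per gene for 11115 genes. Red points changed with the sugar drink and had diet effects that differed between the drinks. The dashed line marks equal effects. Gpnmb, Timp1, Gsta1 and Cyp2b13 lie high above it, and Mup20 and Eif4ebp3 far below it.

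Among genes with the largest tested differences, Timp1 and Gpnmb changed more with the sugar drink than with water. The diet effect on Timp1 was 1.504 with the drink and 0.10 with water, a difference of 1.40 (limma adjusted p = 0.0254). For Gpnmb the effect was 2.13 with the drink and 0.40 with water, a difference of 1.73 (limma adjusted p = 0.0366), and this call was kept under only 11 of 24 sample omissions. Il1b and Mmp13 also differed, by 1.29 and 0.97 (limma adjusted p = 0.0254 and 0.0174). Gsta1 had effects of 1.83 with the drink and 0.03 with water (limma adjusted p of the difference = 0.0207). Cyp2b13 and Eif4ebp3 differed by 1.80 and -1.97 (limma adjusted p = 0.0475 and 0.0446), calls kept under 5 and 8 of 24 omissions. With the sugar drink, Mup20 was lower on the high-fat diet than on the normal diet. With water it averaged 1688 in high-fat livers and 1498 in control livers, a log2 difference of 0.16 that did not pass (limma adjusted p of the difference between drinks = 0.00155). All high-sugar values of Mup20, given above, exceeded that control mean. ND4L, a complex I subunit, and Acin1, a splicing-associated protein, differed by -1.43 and -1.29 (limma adjusted p = 1.03e-04 and 1.03e-04), the second on 1 of its probes only. For the clock list, 11 of the 14 fell with water, with a median of -0.80, and 3 with the drink, and the difference was called for none. Lipid droplet genes and fatty acid oxidation genes had 8 of 15 and 12 of 34 rises with water, against 2 and 1 with the drink, and the difference itself was called for 1 and 3 of them. General macrophage and Kupffer cell markers had 8 of 12 rises with water, against 3 with the drink, and the difference was called for none. Their medians were 0.37 with water and 0.13 with the drink. Of 7 lipid-associated macrophage genes, 2 rose with water and 6 with the drink, and the difference was called for 1. Of 18 growth hormone genes, 6 fell and 1 rose with water, while 7 fell with the drink, and the difference was called for 2.

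The 8 genes that changed in opposite directions included Avpr1a, the liver's vasopressin receptor. It had a diet effect of -0.54 with the sugar drink and 0.46 with water, reading 167, 234 and 275 in high-fat high-sugar livers and 239, 356 and 400.2 in high-sugar livers (limma adjusted p of the difference = 0.00583). Gpr182, a receptor of sinusoidal endothelium, had effects of -0.28 with the drink and 0.31 with water (limma adjusted p of the difference = 0.00401). Large2, a glycosyltransferase of dystroglycan, had -0.39 with the drink and 0.60 with water, and Desi2, a deSUMOylating peptidase, -0.47 with the drink and 0.30 with water (limma adjusted p = 7.20e-04 and 0.00168). Mrps2, Thap3 and Ypel4 also were lower on the high-fat diet with the drink and higher on it with water. Brd2, a bromodomain reader of acetylated histones, had diet effects of 0.29 with the drink and -0.25 with water. With 1 of the 12 sugar-drink samples left out, the change with the drink was kept under 12 omissions for Desi2 and Avpr1a, but under 9 for Gpr182, 8 for Large2, 7 for Mrps2, 5 for Thap3, 4 for Ypel4 and 3 for Brd2, where the adjusted p reached between 0.0617 and 0.118 (limma). With the mean of all probes, neither Avpr1a nor Thap3 passed for the change with the drink (limma adjusted p = 0.0646 and 0.125). None of these effects exceeded 1.5-fold with the sugar drink.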

How the data were processed

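Liver RNA of 24 male C57BL/6J mouse samples, in 4 groups of 6, was measured on an Illumina bead array. Per the labels, RNA was converted to biotin-labelled cRNA, and per the submitters' processing notes GenomeStudio 2011.1 was used. The deposited unit is intensity of 45281 probes on a linear scale. The deposited values themselves show background subtraction (37.7% were negative) and quantile normalisation (sorted columns differed by at most 0.231). A second deposited table, of non-normalised intensity, was not used here because its 24 signal columns match no sample label. No slide or scan information was found, so no batch could be examined.

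Intensity plus 32 was taken to log2. The noise limit was 1.645 times the root mean square of an array's negative values, 6.5 to 6.52. Probes above it on at least 6 arrays were kept (20216), and the brightest probe of each gene gave 11115 genes. The limit was passed by 17976 to 18010 probes on each array. Precision is limited by the 6 arrays per group. Symbols came from the array's annotation, which gave 1 symbol for 34885 probes, several for 18 and none for 10378, and 34807 were updated through RefSeq gene identifiers. The test was limma 3.58.1 in R 4.3.3, with 1 mean per group over 24 samples, an intensity trend and Benjamini-Hochberg adjustment within each contrast, at a threshold of 0.05. The fit was tested on simulated data.

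Named genes were the 12 largest rises and 12 largest falls past the threshold, the 4 members of each list with the smallest adjusted p and other members past it, the 8 largest tested differences between drinks and up to 8 genes with opposite directions. The 38 lists and the genes were chosen with earlier results of these data known. Gene families were chosen by symbol after their values were seen. Promoters came from RefSeq (GRCm38.p6), and their motifs were chosen with results known. A floor in place of the offset, other offsets (16 and 64), filters, loess, array weights, a replicate block and leaving out each sample were tried as alternatives.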

Additional observations from a re-analysis of the deposited data

Results flagged for a closer look

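Of 228 groups of 6 values examined, 12 held a sample far from the other 5 (5.26%), and chance alone flags about 1 in 20. Among high-fat high-sugar livers these were Apoh in replicate 5, at 484 against 222 to 277 in the others, Herpud1 in replicate 1, at 6120 against 9230 to 11700, and Srxn1 in replicate 1, at 846 against 431 to 555. Among high-sugar livers replicate 1 stood apart for Cyp2b13 (92.5), Lgals3 (253), Nr1i2 (168) and Pck1 (117), replicate 2 for Fos (13.5) and Gpt (4320), replicate 3 for Desi2 (108), replicate 5 for Slc40a1 (3570) and replicate 6 for Rgs16 (2490).

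The effect of the high-fat diet differed between the sugar drink and plain water, by a direct test of the difference (limma, adjusted p under 0.05), for 25 of the 114 named genes that changed with the drink. Over all genes tested the share was 2.47%. Of the named genes, 8 were named for the size of this difference and 8 for opposite directions. The count of 25 is therefore largely set by that choice. The log2 difference, sugar drink minus water, was -1.97 for Eif4ebp3, -1.83 for Mup20, 1.8 for Cyp2b13, 1.8 for Gsta1, 1.73 for Gpnmb, -1.43 for ND4L, 1.4 for Timp1 and -1.29 for Acin1. It was also -1.23 for Ffar3, -1.2 for Mup5, -0.722 for H2-Q10, -0.581 for Cyp2c29, -0.575 for Pck1, -0.446 for Tdo2, 1.29 for Il1b, 0.971 for Mmp13 and 0.864 for Krt8. Among genes with opposite directions it was -0.772 for Desi2, -0.995 for Avpr1a, -0.991 for Large2, -0.598 for Gpr182, -0.585 for Mrps2, -0.569 for Thap3, 0.541 for Brd2 and -0.648 for Ypel4. With the floor of 16 the difference was lost for Timp1, Ypel4, Mup5, Pck1, Il1b, Gpnmb, Eif4ebp3 and Cyp2b13, and with the mean of all probes for Thap3, Eif4ebp3 and Cyp2b13. Eif4ebp3 and Cyp2b13 were also lost with an offset of 64 and with no filter on dim probes. Of 24 sample omissions, 5 kept the call for Cyp2b13, 8 for Eif4ebp3, 11 for Gpnmb, 12 for Pck1 and 23 for Il1b, and all 24 kept it for the other 20 genes.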

How the results depend on the processing

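The 875 genes changed by the high-fat diet with the sugar drink were 694 with intensities floored at 16 and 1164 with array weights, and between 824 and 911 under the other 9 alternatives. The range over single samples left out was 535 to 959, the lowest without high-fat high-sugar replicate 1. The difference of the diet effects passed for 275 genes, for 453 with array weights, and for 161 to 449 with single samples left out. The water comparison gave 1577 to 2109 genes with single samples left out. Of 114 named genes followed, 74 passed under every alternative, 81 under all 12 sample omissions and 82 under all 11 settings, and none reversed. The most were lost without high-fat high-sugar replicate 1 (24) and with the floor of 16 (23), and 12 differed by over 1.5 times more with that floor. A fit of the 12 samples alone lost 9, the mean of all probes 8, no filter on dim probes 6, the replicate block 5, each other setting at most 3, and the other sample omissions 5 to 21. For lists, 129 counts over all alternatives moved by more than 1.5 times. Same-numbered samples of the groups had deviations that correlated between -0.027 and 0.286, above 0.1 in 3 of 6 pairs. Of 6 high-fat high-sugar samples, 2 correlated best with their own number. The labels do not say whether same-numbered samples share an origin, and this was not tested. With a replicate block the counts were 834, 1958 and 264, for the diet with the sugar drink, the diet with water and their difference; the block lost Chac1, Cyp2e1, Gpt, Lcn2 and Lum among named genes, and the difference between drinks for Gpnmb. A fit that starts from the non-normalised table was not run, since its columns match no label. The cause of these shifts was not tested. Of 503 second probes of changed genes, 175 passed, 172 of these in the gene's direction. Whether passing or not, 430 of the 503 had the same sign as the gene. For 71 changed genes a group mean below the noise limit bounds the fold only by the added 32.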
